A study of Mus musculus with 6 samples.

Results

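The genes described are those of Polycomb repressive complex 2 (PRC2), the enzyme complex that methylates histone H3 on lysine 27. All 10 members, *Ezh1*, *Ezh2*, *Suz12*, *Eed*, *Jarid2*, *Rbbp4*, *Rbbp7*, *Mtf2*, *Phf19* and *Aebp2*, were taken from a list of symbols and matched to Ensembl gene IDs. They are 10 of the 32493 genes in the count table, and all 10 passed the filter on low counts that left 16710 genes for testing. The question was how the transcripts of this complex stood in neural stem cells (NSCs) that had lost miR-151.

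The study profiled RNA from cultured NSCs of mouse embryos at E14.5. In the cko group the floxed miR-151 locus, which lies in an intron of *Ptk2*, was removed by Emx1-IRES-Cre, and the ctrl group (wt in the sample labels) was fl/fl and Cre-negative. All mice were on a C57BL/6J background, and the cells had been passaged in medium with B27, EGF and bFGF before RNA was taken. Libraries were labelled ctrl 1 to 3 and cko 1 to 3. The Cre driver is active in the dorsal telencephalon, and the study names both the cortex and the lateral ventricles as the site of dissection. The level of the miRNA itself was not analysed here.

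The column of ctrl 2 was the mean of ctrl 1 and ctrl 3, rounded up, in 32493 of 32493 genes, so it was counted in no n, and 2 ctrl libraries were compared with 3 cko libraries. Total counts were 22773559 in ctrl 1, 18950862 in ctrl 3, 17883796 in cko 1, 23335736 in cko 2 and 21736269 in cko 3. The member genes had between 232 and 7896 counts in a library. The cko libraries were closer to each other than the ctrl libraries were: of 14347 genes, 544 differed more than 2-fold between ctrl 1 and ctrl 3, against 91 between cko 1 and cko 2, 99 between cko 1 and cko 3 and 40 between cko 2 and cko 3. Every pair still differed beyond sampling noise, with a chi-square of at least 4.07 per gene. The sources speak of littermates but do not say that these sequenced libraries came from separate animals or cultures, so the p-values measure the spread between these samples, which may be technical.

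PRC2 places the H3K27me3 mark that keeps developmental genes silent. Its catalytic subunit is EZH2, which prevails in dividing progenitors, or EZH1, which is common in cells that have left the cycle. SUZ12 and EED complete the core, RBBP4 and RBBP7 bind histones, and the accessory subunits define the PRC2.1 form (MTF2, PHF19) and the PRC2.2 form (JARID2, AEBP2). In the developing cortex, PRC2 is known for its part in the timing of the switch from neurogenesis to gliogenesis.

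Transcripts of 4 of the 10 members were higher in cko at an adjusted p under 0.05 (edgeR quasi-likelihood test, Benjamini-Hochberg over all tested genes; "called" below): *Ezh2*, *Jarid2*, *Rbbp4* and *Phf19*. Over all tested genes, 7.86% were called higher and 8.57% were called lower. The 4 members called fell to 1, *Ezh2*, without cko replicate 1, 2 or 3, or with the replicate number as a block. Without cko replicate 2, the genes called higher fell from 1314 to 317 and those called lower from 1432 to 416. No member was called lower by the main edgeR test, while DESeq2 called 1, *Ezh1*, as did some edgeR alternatives given below. At an unadjusted p under 0.05, 5 members were higher and 1 was lower, against 15.9% and 16.7% of all tested genes. By the rule of a log2 fold change beyond 0.9 with an unadjusted p under 0.01, which took 2.39% of genes as higher and 4.17% as lower, 0 members passed with edgeR and 0 with DESeq2. The fold of cko over ctrl lay between 0.695 (*Ezh1*) and 1.53 (*Ezh2*). The libraries of the groups did not overlap in 5 members that were higher in cko and 2 that were lower, where 25.4% and 24.3% of all tested genes were separated in this way. The median log2 fold change of the members was 0.23, against 0.00 over all tested genes, and 8 of the 10 were positive, against 49.7% of all genes.

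**Figure D1:**
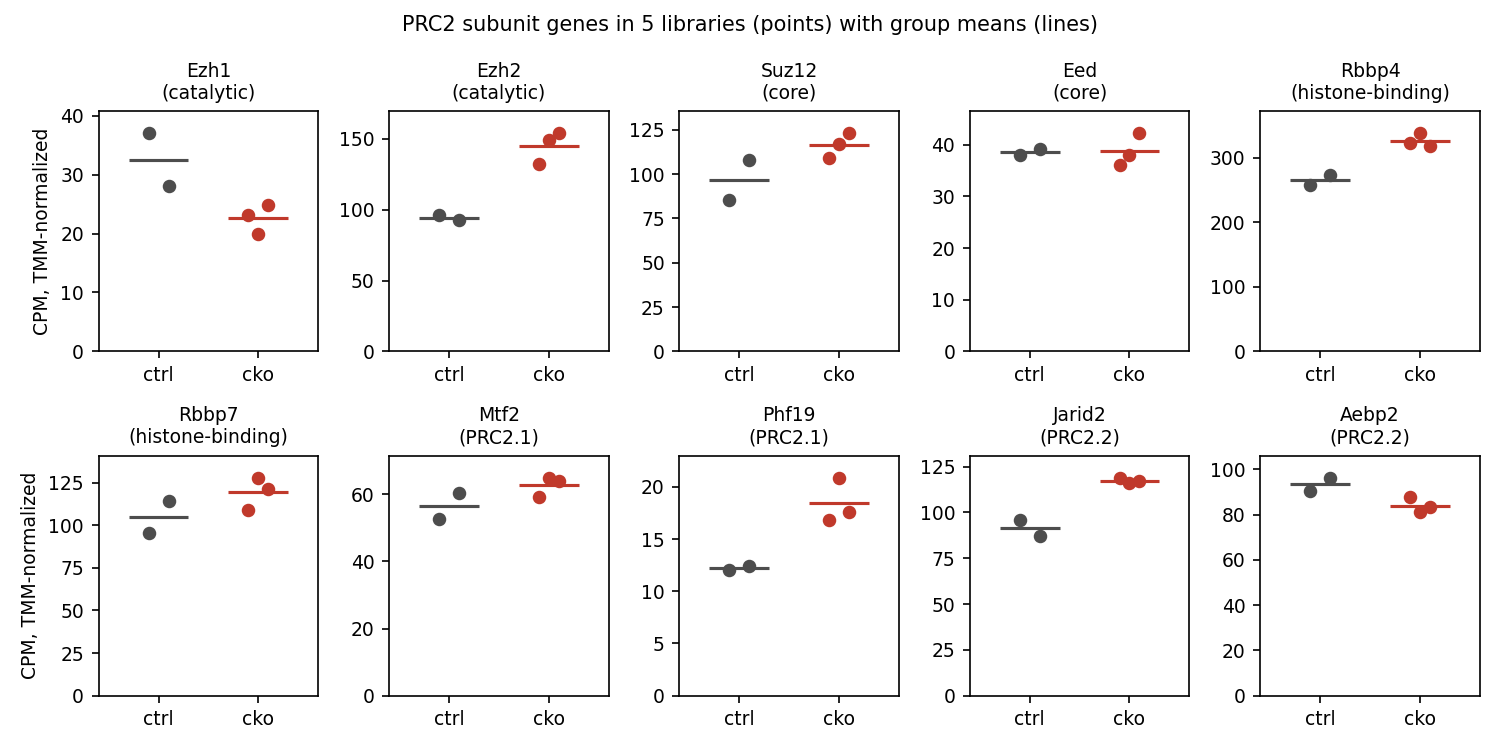
Level of each PRC2 subunit gene in CPM (counts scaled to the library total, normalized by TMM; vertical axes, starting at 0), with a point for each of the 2 ctrl and 3 cko libraries and a line at each group mean. *Ezh2*, *Jarid2*, *Rbbp4*, *Phf19* and *Suz12* have all cko points above both ctrl points, *Ezh1* and *Aebp2* have all cko points below, and the points of the other genes overlap.

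Levels of different genes were compared as CPM per kb of exon, with all annotated exons of a gene merged. The order depends on these lengths, and which transcript forms were present was not measured. *Rbbp4* and *Rbbp7*, with 8744 and 2909 bases, had ctrl means of 266 and 105 CPM before this division, the reverse of their order per kb. Averaged over the 5 libraries of both groups, the order was *Rbbp7* (39.0), *Rbbp4* (34.6), *Suz12* (21.9), *Ezh2* (18.7), *Jarid2* (11.0), *Mtf2* (10.6), *Eed* (10.1), *Aebp2* (8.91), *Ezh1* (3.57) and *Phf19* (3.16). The histone-binding pair, which also serves other chromatin complexes, stood at the top, with ranges over all libraries of 32.8 to 44.1 and 29.5 to 38.7 CPM per kb that overlapped, although *Rbbp7* was above *Rbbp4* within each of the 5 libraries. The ranges also overlapped for *Suz12* and *Ezh2*, with *Suz12* above in each of the 5 libraries, for the group from *Jarid2* to *Aebp2*, and for *Ezh1* and *Phf19*. The order differed between the groups: in ctrl the means per kb were 10.1 for *Eed*, 9.91 for *Mtf2*, 9.48 for *Aebp2* and 9.42 for *Jarid2*, and *Ezh1* (4.37) was above *Phf19* (2.42), while in cko *Jarid2* (12.1) led that group of 4 and *Phf19* (3.66) was above *Ezh1* (3.04). Steps with no overlap of the ranges lay below *Rbbp4*, below *Ezh2* and below *Aebp2*. Of 16647 tested genes with a known length, 93.4% had a lower mean level per kb than *Rbbp7*, 82.5% a lower one than *Ezh2*, and 42.6% and 40.3% a lower one than *Ezh1* and *Phf19*.

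Promoter windows are shown for *Ezh2*, *Phf19* and *Suz12*, which hold an E2F-type motif, and for *Ezh1*, the catalytic paralogue without one. E2F factors are the main transcription factors of the entry into S phase. The windows run from 250 bases before to 50 bases from the RefSeq start site on (GRCm38.p6, given 5′ to 3′ on the strand of the gene), and all 10 members matched, with 14 windows. The letters searched on both strands were TTTCCCGC, TTTGGCGC, TTTCGCGC and TTTGCCGC, and they are in capitals. *Ezh2* (chr6:47594981-47595280, minus strand) has its match from base 4 after the start site, *Phf19* (chr2:34913927-34914226, minus strand) from base -208, on the opposite strand, and *Suz12* (chr11:79992856-79993155, plus strand) from base -219. The window of *Ezh1* is chr11:101226414-101226713, minus strand.
Ezh2: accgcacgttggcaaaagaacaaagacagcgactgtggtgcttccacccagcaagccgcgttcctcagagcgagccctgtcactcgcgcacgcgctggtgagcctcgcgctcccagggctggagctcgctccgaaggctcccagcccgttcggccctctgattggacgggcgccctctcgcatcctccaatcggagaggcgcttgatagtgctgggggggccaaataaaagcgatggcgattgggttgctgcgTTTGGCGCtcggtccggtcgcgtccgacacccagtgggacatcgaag
Phf19: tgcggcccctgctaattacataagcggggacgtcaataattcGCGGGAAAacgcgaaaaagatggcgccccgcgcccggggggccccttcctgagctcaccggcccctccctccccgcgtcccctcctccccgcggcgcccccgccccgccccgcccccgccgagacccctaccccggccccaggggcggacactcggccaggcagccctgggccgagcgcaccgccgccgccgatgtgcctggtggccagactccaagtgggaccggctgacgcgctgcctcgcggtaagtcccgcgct
Suz12: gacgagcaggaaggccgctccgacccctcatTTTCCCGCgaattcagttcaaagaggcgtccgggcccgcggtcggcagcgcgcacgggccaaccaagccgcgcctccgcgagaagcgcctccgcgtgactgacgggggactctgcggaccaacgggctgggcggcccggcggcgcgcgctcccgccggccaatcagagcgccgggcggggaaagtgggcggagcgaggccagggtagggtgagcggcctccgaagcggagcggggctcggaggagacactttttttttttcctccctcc
Ezh1: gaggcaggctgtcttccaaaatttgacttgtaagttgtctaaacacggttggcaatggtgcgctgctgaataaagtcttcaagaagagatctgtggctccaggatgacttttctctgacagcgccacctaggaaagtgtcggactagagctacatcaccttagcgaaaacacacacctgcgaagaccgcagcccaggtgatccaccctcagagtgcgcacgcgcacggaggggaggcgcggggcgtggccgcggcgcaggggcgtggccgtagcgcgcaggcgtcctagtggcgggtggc

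Thus 3 of the 14 member windows, of 3 members, held the motif, beside 2.26% of 32851 windows of the same length and 4.59% of the 11297 tested genes with a window. The other 7 members had no match, which says only that these letters are absent from their windows. *Jarid2* and *Rbbp4*, which were called higher, are among these 7, while *Suz12*, which has a match, was not called. Of 518 tested genes with a match, 15.3% were called higher and 6.76% lower in cko, against 8.68% and 9.68% of all tested genes with a window. Their median log2 fold change was 0.11, against 0.00. Without the 13 genes that are also in the S-phase list described below, 14.3% of 505 were called higher. That list of 43 genes does not cover the whole cell cycle, and the CpG content of the windows was not taken into account. The motif was chosen after the values of the cell cycle genes had been seen, and a match is a description of the sequence, not evidence of binding. Member windows were mostly rich in CpG, with up to 41 CpG in the window of *Suz12* and 31 in that of *Ezh2*, where the median window had 7.

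The catalytic subunits had log2 fold changes of opposite sign, of which that of *Ezh2* was called. *Ezh2* (ENSMUSG00000029687, chromosome 6, 47530139 to 47595341, minus strand), whose product writes most H3K27me3 in cycling cells, stood at 96.0 CPM in ctrl 1, 93.0 in ctrl 3, 132 in cko 1, 149 in cko 2 and 154 in cko 3. All cko libraries were above both ctrl libraries, and the ctrl pair was close together. The group means were 94.5 ± 2.1 CPM (SD, n = 2) and 145 ± 11.5 CPM (SD, n = 3), and the log2 fold change was 0.62 (SE 0.09, 95% confidence interval 0.41 to 0.82, edgeR with Benjamini-Hochberg adjusted p = 0.00555). It was the member with the smallest p, and it stayed called in 12 of 12 alternative analyses, with adjusted p-values from 3.69e-08 to 0.0427 by edgeR or DESeq2. These 12 include the run with all 6 columns, which counts the averaged ctrl column as a library, and the runs that leave 1 ctrl library.

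*Ezh1* (ENSMUSG00000006920, chromosome 11, 101191115 to 101226463, minus strand), which encodes the less active methyltransferase, stood at 37.0 CPM in ctrl 1, 28.0 in ctrl 3, 23.1 in cko 1, 20 in cko 2 and 24.8 in cko 3. Every cko library was below both ctrl libraries, and ctrl 1 was the highest of the 5. The log2 fold change was -0.53 (SE 0.15, 95% confidence interval -0.88 to -0.17), and the gene just missed the threshold (edgeR with Benjamini-Hochberg adjusted p = 0.0540). *Ezh1* was past it with DESeq2 (adjusted p = 0.0229) and with edgeR when no low-count filter was used (0.00140). The edgeR run with all 6 columns also called it (0.0158), but there the averaged column understates the spread of ctrl. Without ctrl replicate 3, which leaves 1 ctrl library, its log2 fold change was -0.71. Over the 12 alternatives its adjusted p ran from 0.00140 to 0.172, and the log2 fold change from -0.71 to -0.32.

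Within a library the ratio of *Ezh2* to *Ezh1* needs no scaling. On the scale of counts per kb of exon it was 2.89 in ctrl 1 and 3.71 in ctrl 3, against 6.36, 8.31 and 6.91 in cko 1, 2 and 3. The cko ratios were all above the ctrl ratios, by 1.13 on the log2 scale or 2.19-fold. An exact two-sided permutation test over libraries gave p = 0.100, which is the smallest p that 10 arrangements of 2 against 3 libraries can give. *Ezh1* supplied 25.7% and 21.2% of the catalytic transcripts per kb in ctrl 1 and ctrl 3, and 13.6%, 10.7% and 12.6% in cko 1, 2 and 3. The sum of both genes was nevertheless higher in cko, with 18.5 ± 1.18 CPM per kb in ctrl (SD, n = 2) and 24.7 ± 1.76 in cko (SD, n = 3), a ratio of 1.34.

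**Figure D2:**
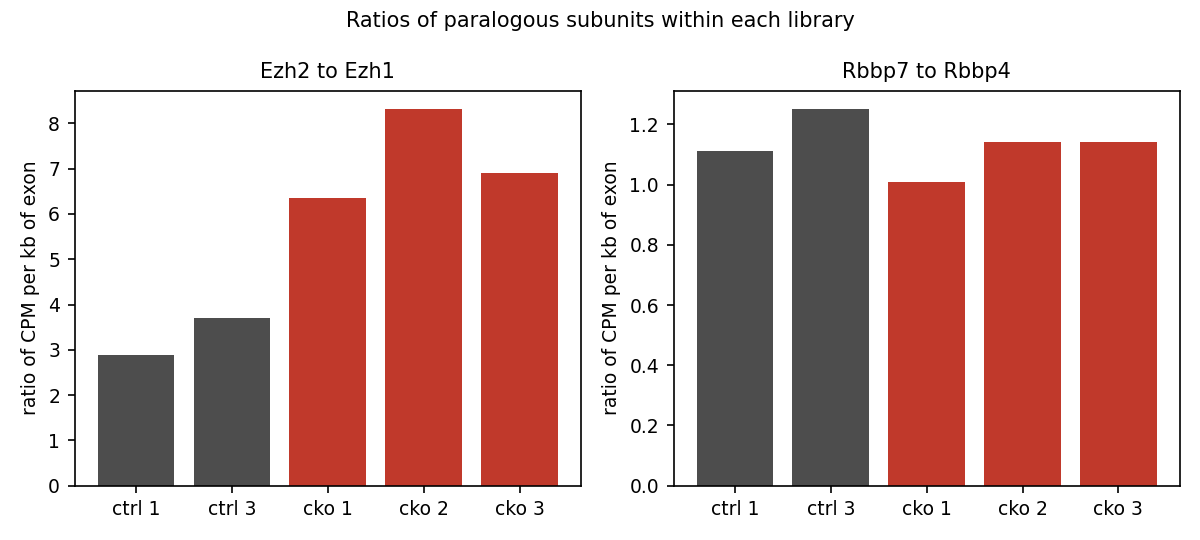
Ratio of *Ezh2* to *Ezh1* (left) and of *Rbbp7* to *Rbbp4* (right) in each library, as CPM per kb of exon, with grey bars for ctrl and red bars for cko. The catalytic ratio lies between 2.89 and 3.71 in ctrl and between 6.36 and 8.31 in cko, while the ratios of the histone-binding pair overlap.

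The core partners, without which the catalytic subunit is inactive, showed smaller differences. *Suz12*, the scaffold of the complex, stood at 85.2 CPM in ctrl 1, 108 in ctrl 3, 109 in cko 1, 117 in cko 2 and 123 in cko 3. The cko libraries were above both ctrl libraries, but ctrl 3 and cko 1 nearly met. Its log2 fold change of 0.27 (SE 0.11, 95% confidence interval 0.01 to 0.53) was not called (edgeR with Benjamini-Hochberg adjusted p = 0.144). Without ctrl replicate 3 it was called, at 0.45 with an adjusted p of 0.00949, and without ctrl replicate 1 the log2 fold change was 0.10 with an adjusted p of 0.469, which are the ends of the range over the alternatives. *Eed*, which binds H3K27me3 and passes the signal to the enzyme, had 38.0 and 39.2 CPM in ctrl 1 and ctrl 3 and 36.1, 38.1 and 42.2 CPM in cko 1, 2 and 3. The cko values lay on both sides of the ctrl values. The log2 fold change was 0.01 with a 95% confidence interval from -0.22 to 0.23, and it ran from -0.07 to 0.05 over the alternatives.

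Of the histone-binding subunits, *Rbbp4* (chromosome 4, 129307100 to 129335370, minus strand) was the member with the most counts. It stood at 258 CPM in ctrl 1, 274 in ctrl 3, 323 in cko 1, 338 in cko 2 and 319 in cko 3, with no overlap between the groups. That is a log2 fold change of 0.30 (SE 0.07, 95% confidence interval 0.12 to 0.47, edgeR with Benjamini-Hochberg adjusted p = 0.0346). That call was lost without ctrl replicate 1 (adjusted p = 0.0515) and without cko replicate 1 (0.0805), 2 (0.181) or 3 (0.135), with a range over all alternatives from 0.00450 to 0.181. *Rbbp7*, its paralogue on the X chromosome, had 95.4 and 114 CPM in ctrl 1 and ctrl 3 and 109, 128 and 121 CPM in cko 1, 2 and 3. Its groups overlapped, since ctrl 3 was above cko 1, and its log2 fold change of 0.19 (95% confidence interval -0.06 to 0.44) was not called by edgeR (Benjamini-Hochberg adjusted p = 0.259). Per kb of exon, the ratio of *Rbbp7* to *Rbbp4* was 1.11 and 1.25 in ctrl 1 and ctrl 3 and 1.01, 1.14 and 1.14 in cko 1, 2 and 3. Its difference of -0.11 on the log2 scale gave p = 0.600 in the exact two-sided permutation test.

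Among the PRC2.1 subunits, *Phf19* (chromosome 2, 34893757 to 34914026, minus strand) encodes a Polycomb-like protein that helps the complex onto chromatin. It was the lowest member per kb in both ctrl libraries, while *Ezh1* was lowest in all 3 cko libraries. *Phf19* had 12 and 12.4 CPM in ctrl 1 and ctrl 3 and 16.8, 20.9 and 17.6 CPM in cko 1, 2 and 3. All cko libraries were above both ctrl libraries, which were nearly equal. The log2 fold change of 0.60 (SE 0.14, 95% confidence interval 0.27 to 0.93) was close to that of *Ezh2* (edgeR with Benjamini-Hochberg adjusted p = 0.0293). Leaving out a cko library ended the call, with adjusted p-values of 0.0501 without cko replicate 1, 0.130 without cko replicate 2 and 0.102 without cko replicate 3, and the range over all alternatives was 0.00416 to 0.130. *Mtf2*, a related protein that binds unmethylated CpG-rich DNA, had 52.6 and 60.3 CPM in ctrl 1 and ctrl 3 and 59.2, 65.0 and 64.1 CPM in cko 1, 2 and 3. Ctrl 3 lay above cko 1, and the log2 fold change of 0.15 (95% confidence interval -0.06 to 0.37) was not called (edgeR with Benjamini-Hochberg adjusted p = 0.290).

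The PRC2.2 subunits differed in sign. *Jarid2* (chromosome 13, 44729474 to 44921643, plus strand), a DNA-binding cofactor that recruits and activates the complex, stood at 95.8 CPM in ctrl 1, 87.2 in ctrl 3, 119 in cko 1, 116 in cko 2 and 117 in cko 3. The cko libraries were almost equal and lay above both ctrl libraries. Its log2 fold change was 0.36 (SE 0.08, 95% confidence interval 0.18 to 0.53, edgeR with Benjamini-Hochberg adjusted p = 0.0207). Without cko replicate 1, 2 or 3 it missed the threshold, with adjusted p-values of 0.0582, 0.0968 and 0.105, and the range over all alternatives was 0.00233 to 0.105. *Aebp2*, which stabilizes the complex, had 90.3 and 96.4 CPM in ctrl 1 and ctrl 3 and 87.7, 81.1 and 83.3 CPM in cko 1, 2 and 3. Here the cko libraries were below both ctrl libraries, yet the log2 fold change of -0.15 (95% confidence interval -0.33 to 0.03) was not called (edgeR with Benjamini-Hochberg adjusted p = 0.213). Summed per kb, the PRC2.1 pair had a ratio of cko to ctrl means of 1.19, the PRC2.2 pair of 1.09, the core pair of 1.14 and the histone-binding pair of 1.18.

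**Figure D3:**
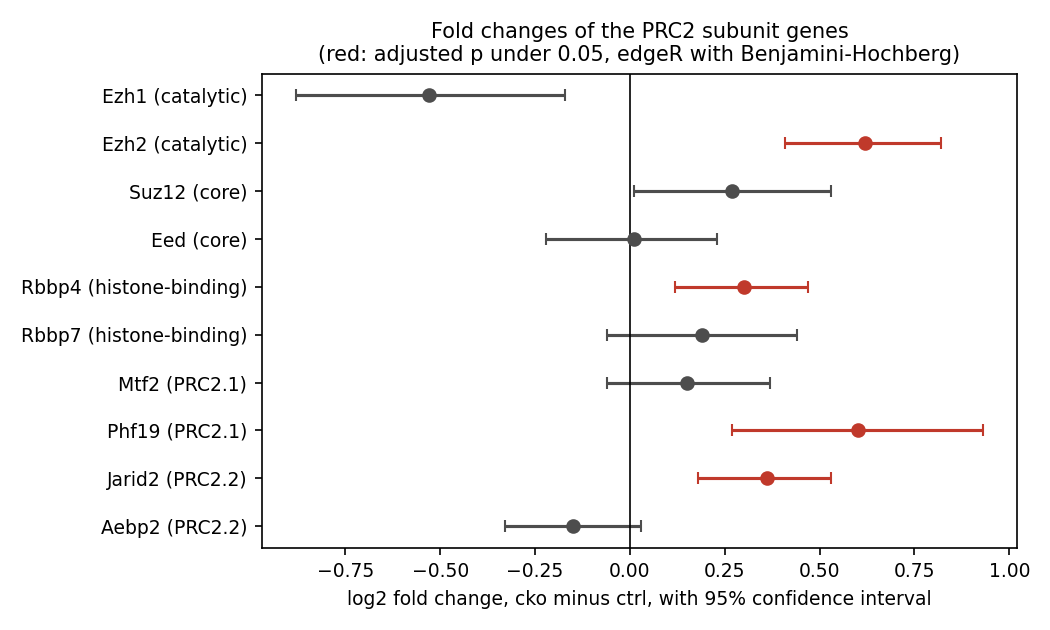
Log2 fold change of each PRC2 subunit gene (horizontal axis, cko minus ctrl) with its 95% confidence interval from edgeR, ordered by role. The 4 red genes were called higher, and the intervals of *Eed*, *Rbbp7*, *Mtf2* and *Aebp2* include 0.

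Reads of some members may be shared with other genes, because the sources used here do not say whether counting used the strand. Annotated genes overlap 8 of the 10 members, with *Ezh1* and *Aebp2* free of overlap. The abundant partners were *Tmed5* over *Mtf2*, at a mean of 64.3 CPM, and *Txlng* over *Rbbp7*, at 28.1 CPM, both on the opposite strand. *E230029C05Rik* over *Eed* was at 1.42 CPM, and the other overlapping genes with counts were below 1 CPM. Stretches of at least 100 bases with at least 95% identity to genes elsewhere were found for *Rbbp7*, where the processed pseudogene *Gm6382* matches over 942 bases at 97.1% and had a mean of 1.15 CPM, and for *Rbbp4*. *Rbbp7*, *Rbbp4*, *Mtf2* and *Eed* are the more uncertain for this.

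The 5 genes whose pattern over the 5 libraries was most like that of *Ezh2*, by the root mean square difference of centred log2 CPM among 10179 other genes with a mean of at least 10 CPM, were *Dusp10* (0.0196), *Dsn1* (0.0248), *Bora* (0.0349), *Wee1* (0.0364) and *Armcx4* (0.0372). Their log2 fold changes lay between 0.62 and 0.66, beside the 0.62 of *Ezh2*, a likeness that follows from how they were chosen.

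Other genes of the Polycomb pathway were counted in the same way. Of 4 tested accessory genes outside the member list, *Epop*, which modulates PRC2.1, was called higher, at 4.11 and 3.84 CPM in ctrl 1 and ctrl 3 and 5.99, 8.36 and 6.34 CPM in cko 1, 2 and 3. The log2 fold change of *Epop* was 0.80 (SE 0.22, edgeR with Benjamini-Hochberg adjusted p = 0.0468), and the call was lost whichever of the 5 libraries was left out (adjusted p between 0.0570 and 0.176). The range over all alternatives was 0.00869 to 0.176. Of 23 PRC1 subunits, which read H3K27me3 or ubiquitinate histone H2A, 1 was called higher and 1 lower, and the median log2 fold change was 0.12. *Phc2*, a polymerizing subunit of canonical PRC1, had 170 and 183 CPM in ctrl 1 and ctrl 3 and 224, 251 and 240 CPM in cko 1, 2 and 3, and its log2 fold change was 0.44 (SE 0.08, edgeR with Benjamini-Hochberg adjusted p = 0.0140). That call was lost without cko replicate 2 (0.0888) or 3 (0.0840), in a range from 1.37e-04 to 0.0888. *Bcor*, a subunit of the variant complex PRC1.1, went the other way, from 50.3 and 54.4 CPM in ctrl 1 and ctrl 3 to 32.3, 28.3 and 27.9 CPM in cko 1, 2 and 3. Its log2 fold change of -0.83 (SE 0.10, edgeR with Benjamini-Hochberg adjusted p = 0.00288) stayed called in 12 of 12 alternatives. Without ctrl replicate 3, 2 PRC1 genes were called higher and 5 lower, and without cko replicate 2 or 3, 0 were called higher.

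Other enzymes that add or remove histone marks were counted next. Of the H3K27 demethylases, *Kdm6a* had 85.1 and 69.3 CPM in ctrl 1 and ctrl 3 and 68.4, 63.8 and 69.6 CPM in cko 1, 2 and 3, so that its groups met, with a log2 fold change of -0.20 (95% confidence interval -0.44 to 0.04). *Kdm6b* had 170 and 203 CPM in ctrl 1 and ctrl 3 and 146, 151 and 167 CPM in cko 1, 2 and 3, with a log2 fold change of -0.27 (95% confidence interval -0.51 to -0.03). Neither was called (edgeR with Benjamini-Hochberg adjusted p = 0.228 and 0.116), although *Kdm6a* was called without ctrl replicate 3 (0.0288) and *Kdm6b* without ctrl replicate 1 (0.0149), with no filter (0.0399) and with all 6 columns (0.0468), in ranges over the alternatives of 0.0288 to 0.721 and 0.0149 to 0.359. Their Y-linked relative *Uty* was called higher and is given with the sex-linked genes below. None of the 6 PR-DUB subunits, which remove the PRC1 mark from H2A, was called by edgeR or DESeq2, with 1 higher and 1 lower at an unadjusted p under 0.05, although edgeR called 1 higher without ctrl replicate 1, 1 lower without ctrl replicate 3, 1 higher and 1 lower with no filter, and 2 higher and 1 lower with all 6 columns. Among 11 H3K4 methyltransferases and their shared subunits, whose mark is opposed to that of PRC2, 2 were called lower. *Kmt2d* had 273 and 285 CPM in ctrl 1 and ctrl 3 and 213, 211 and 223 CPM in cko 1, 2 and 3, and *Kmt2c* had 276 and 279 CPM in ctrl and 220, 215 and 229 CPM in cko. Their log2 fold changes were -0.37 (SE 0.07) and -0.33 (SE 0.07), with edgeR and Benjamini-Hochberg adjusted p-values of 0.0146 and 0.0218. Both calls were lost without cko replicate 2 (0.0914 and 0.121) or 3 (0.0691 and 0.0861), that of *Kmt2c* also without cko replicate 1 (0.0577), and the adjusted p-values ran from 7.95e-04 to 0.0914 and from 0.00269 to 0.122. Of 5 H3K36 methyltransferases, *Nsd2* was called higher, from 296 and 315 CPM in ctrl 1 and ctrl 3 to 374, 395 and 411 CPM in cko 1, 2 and 3. The log2 fold change of *Nsd2* was 0.36 (SE 0.08, edgeR with Benjamini-Hochberg adjusted p = 0.0226), and without cko replicate 2 or 3 the adjusted p was 0.124 or 0.128, in a range from 0.00171 to 0.128.

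RBBP4 and RBBP7 also serve other complexes, whose genes were counted for comparison. Of 12 NuRD subunits 2 were called higher, the deacetylases *Hdac1* and *Hdac2*, and the median log2 fold change was 0.05. *Hdac1* had 89.9 and 80.9 CPM in ctrl 1 and ctrl 3 and 107, 116 and 111 CPM in cko 1, 2 and 3, a log2 fold change of 0.38 (edgeR with Benjamini-Hochberg adjusted p = 0.0218). *Hdac2* had 165 and 173 CPM in ctrl 1 and ctrl 3 and 217, 218 and 220 CPM in cko 1, 2 and 3, a log2 fold change of 0.37 (edgeR with Benjamini-Hochberg adjusted p = 0.0138). Both were above all ctrl libraries in cko, and both calls were lost without cko replicate 2 (0.115 and 0.0880) or 3 (0.100 and 0.0894), and 1 NuRD gene was called lower without ctrl replicate 1. Over the alternatives the adjusted p-values ran from 0.00227 to 0.115 for *Hdac1* and from 8.82e-04 to 0.0894 for *Hdac2*. None of 13 further SIN3 subunits was called by edgeR or DESeq2, with 2 higher and 1 lower at an unadjusted p under 0.05, while edgeR called 1 higher and 1 lower without ctrl replicate 3, and 2 higher and 1 lower with all 6 columns. Of 6 partners in CAF-1, HAT1 and NURF-type remodellers, 3 were called higher and 6 had a positive log2 fold change, with a median of 0.34. The CAF-1 genes *Chaf1a* and *Chaf1b*, whose products load histones behind the replication fork, led them. *Chaf1b* had 8.87 and 11.3 CPM in ctrl 1 and ctrl 3 and 17.1, 28.5 and 24.2 CPM in cko 1, 2 and 3, with cko 1 the lowest of the cko libraries (log2 fold change 1.21, SE 0.23, edgeR with Benjamini-Hochberg adjusted p = 0.0152). *Chaf1a* had 19.5 and 29.8 CPM in ctrl and 36.4, 55.1 and 49.5 CPM in cko (log2 fold change 0.94, SE 0.23, adjusted p = 0.0314), and the remodelling ATPase *Smarca5* had a log2 fold change of 0.28 (SE 0.08, adjusted p = 0.0496). Without cko replicate 2 or 3, 0 of these 6 genes were called, *Chaf1a* was not called without ctrl replicate 1 (0.0560), nor *Smarca5* without ctrl replicate 1 (0.103) or cko replicate 1 (0.0896), with median-of-ratios size factors (0.0562) or with at least 10 counts in every library (0.0531), and *Smarca5* was called in 5 of 12 alternatives. The highest adjusted p over the alternatives was 0.0725 for *Chaf1b*, 0.122 for *Chaf1a* and 0.213 for *Smarca5*.

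**Figure D4:**
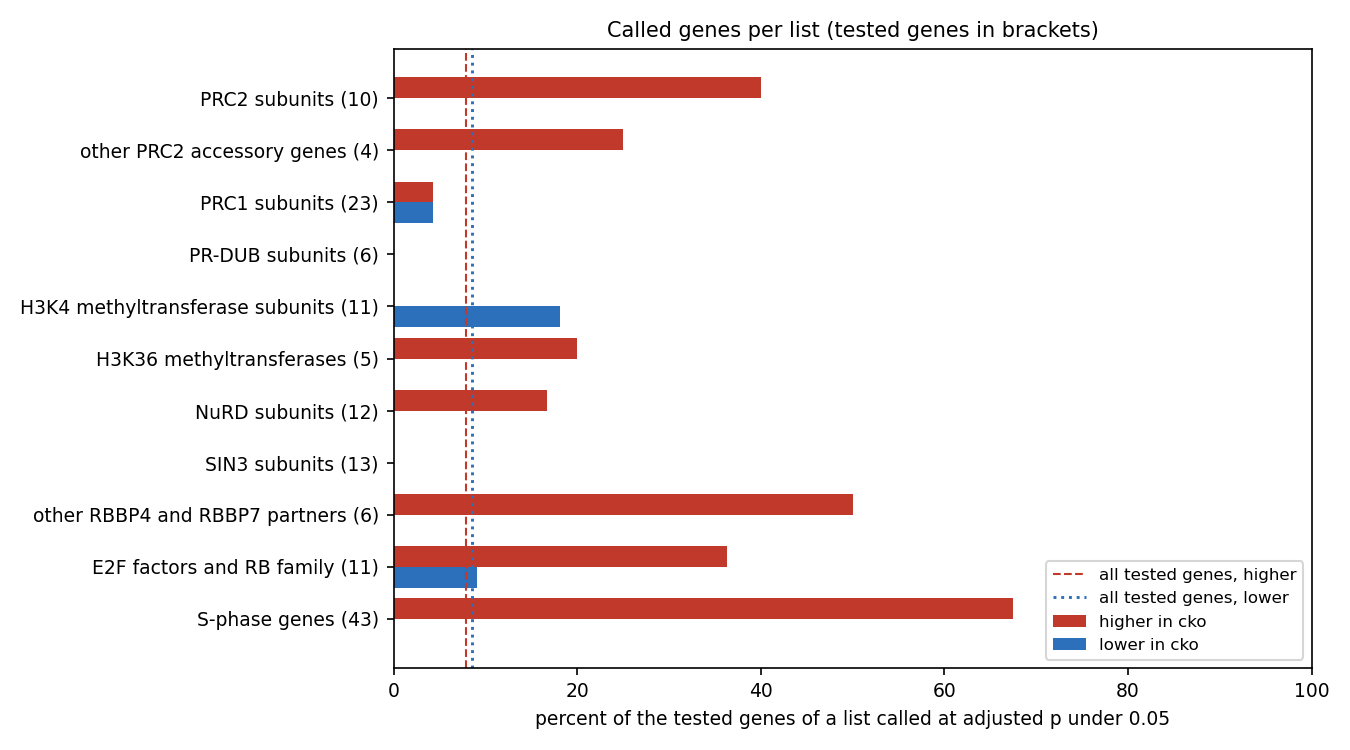
Percent of the tested genes (horizontal axis) called higher (red bars) or lower (blue bars) in cko at an adjusted p under 0.05, with the number tested in brackets and lines at the shares of all tested genes, 7.86% and 8.57%. The lists shown are those with at least 4 tested genes other than the cell type markers and the sex-linked genes, and among them the S-phase list has the longest bar.

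Among the cell cycle genes, those of S phase were counted. Of 43 S-phase genes 29 were called higher and 0 lower by edgeR, DESeq2 called 32 and 0, and 36 were higher and 1 lower at an unadjusted p under 0.05. Their median log2 fold change stood at 0.78, and 41 were positive. Summed, these genes stood at 1390 and 1690 CPM in ctrl 1 and ctrl 3 and at 2180, 2880 and 2740 CPM in cko 1, 2 and 3, with *Rrm1* as the most abundant gene. Without cko replicate 2 or without cko replicate 3, 7 of the 43 were called higher, and with all 6 columns 1 was called lower. Among the genes with the smallest p, *E2f8*, a repressor of the E2F programme, had a log2 fold change of 1.30, *Pola1*, the catalytic subunit of polymerase alpha, of 0.90, and *Rrm1*, the large subunit of ribonucleotide reductase, of 0.97. The part of the cell cycle in the values of the PRC2 genes was not tested.

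Of 11 E2F and RB family genes, 4 were called higher and 1 lower, and the median log2 fold change was 0.07. *E2f8* stood at 13.5 to 15.8 CPM in ctrl and 30.3 to 38.9 CPM in cko, *E2f7* at 7.99 to 10.7 and 16.9 to 29.0 CPM, and *Rbl1*, a pocket protein that restrains E2F factors, at 24.9 to 32.1 and 38.0 to 44.2 CPM. The log2 fold changes of *E2f8*, *E2f7* and *Rbl1* were 1.30, 1.38 and 0.55, with edgeR and Benjamini-Hochberg adjusted p-values of 0.00278, 0.0135 and 0.0312. *E2f8* was called in 12 of 12 alternatives, with adjusted p-values up to 0.0247. Without cko replicate 2 or 3 it was the only one of the list called higher, without ctrl replicate 1 it was 1 of 2, and the call of *Rbl1* was also lost without cko replicate 1 (0.0597) or ctrl replicate 1 (0.0613), with a highest adjusted p of 0.135. *E2f1*, a direct activator of S-phase genes, had 6.60 and 15.1 CPM in ctrl 1 and ctrl 3 and 13.3, 20.6 and 15.8 CPM in cko 1, 2 and 3. Ctrl 3 fell among the cko libraries, and *E2f1* was not called (log2 fold change 0.62, edgeR with Benjamini-Hochberg adjusted p = 0.251), but it was without ctrl replicate 3 (1.34, adjusted p = 0.00654) and with no filter (0.00463, in a range from 0.00463 to 0.726). *E2f5* was called lower, with 32.5 CPM in both ctrl libraries and 24.4, 25.2 and 23.7 CPM in cko 1, 2 and 3 (log2 fold change -0.41, edgeR with Benjamini-Hochberg adjusted p = 0.0241). Leaving out any cko library ended that call of *E2f5*, with adjusted p-values from 0.0597 to 0.112, while 2 genes of the list were called lower without ctrl replicate 1 or 3, by DESeq2, with median-of-ratios size factors, with no filter, with at least 10 counts in every library and with all 6 columns.

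Of known PRC2 targets, the HOX cluster genes and regulators of other lineages were counted, and genes of these lists without a row were not analysed here. None of the HOX cluster genes was tested: 16 of 39 had a row among the genes used here, their highest count in a library was 4, and their sum was 0.439 and 1.06 CPM in ctrl 1 and ctrl 3 and 0.280, 0.471 and 0.414 CPM in cko 1, 2 and 3. At this depth 3 counts correspond to 0.129 to 0.168 CPM, so a fall or a small change in these genes was not detectable. Of 40 regulators of other lineages, 29 had a row and 2 were tested, and the highest count of the untested was 23. *Tbx18*, a mesodermal T-box factor, had 18 and 17 counts in ctrl 1 and ctrl 3 and 0, 0 and 4 counts in cko 1, 2 and 3. It was called lower (edgeR with Benjamini-Hochberg adjusted p = 0.0355), but it was not called without ctrl replicate 3 (0.0597), cko replicate 1 (0.0876) or cko replicate 2 (0.11), and DESeq2 gave it no adjusted p. Without ctrl replicate 1, 3 genes of the list were called lower.

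The Ink4 locus, a classic target of Polycomb silencing that holds the cell cycle inhibitors *Cdkn2a* and *Cdkn2b*, was detected. *Cdkn2b* stood at 17.1 CPM in ctrl 1, 18.6 in ctrl 3, 7.67 in cko 1, 6.43 in cko 2 and 7.31 in cko 3. The cko libraries were all lower, with a log2 fold change of -1.33 (SE 0.14, 95% confidence interval -1.66 to -0.99, edgeR with Benjamini-Hochberg adjusted p = 0.00229), and the gene stayed called in 12 of 12 alternatives. Its neighbour *Cdkn2a* differed strongly between the ctrl libraries, with 4.85 CPM in ctrl 1 and 15.4 in ctrl 3, and had 6.43, 10.5 and 10.2 CPM in cko 1, 2 and 3. All cko values of *Cdkn2a* fell between the ctrl values (log2 fold change -0.15, 95% confidence interval -1.19 to 0.89, edgeR with Benjamini-Hochberg adjusted p = 0.853). Its sign turned with the ctrl library used, from -0.77 without ctrl replicate 1 to 0.91 without ctrl replicate 3, and it was also positive without cko replicate 1 (0.03). Histone marks at this locus were not measured in these data.

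The cultures differed between the groups in other cell type markers, and in bulk RNA fewer cells of a type and less RNA per cell cannot be told apart. Of 10 NSC markers all were tested, 3 were called higher and 1 lower, and *Vim* was the most abundant. Their sum was 8500 and 7320 CPM in ctrl 1 and ctrl 3 and 9470, 8830 and 8710 CPM in cko 1, 2 and 3. Without ctrl replicate 1, 6 were called higher, and without cko replicate 2, 0 were called lower. Of 10 oligodendrocyte lineage markers 2 were called higher and 5 lower. *Olig1*, the most abundant of them, had 1100 and 1350 CPM in ctrl 1 and ctrl 3 and 1810, 1990 and 1880 CPM in cko 1, 2 and 3, while the myelin gene *Mbp* had 139 and 238 CPM in ctrl and 10.5, 9.30 and 11.8 CPM in cko. The sum of this list was 2770 and 3340 CPM in ctrl and 3220, 3510 and 3370 CPM in cko, and 0 were called higher without cko replicate 2 or 3 and 1 without cko replicate 1. Of 7 astrocyte markers 4 were called lower, the most abundant was *Slc1a2*, and the sum was 2630 and 1680 CPM in ctrl 1 and ctrl 3 and 1360, 773 and 808 CPM in cko 1, 2 and 3. Without cko replicate 2 or 3 this count was 1, without ctrl replicate 3 it was 7, and without ctrl replicate 1, 1 astrocyte marker was called higher. Of 10 neuronal markers 8 were tested, 2 were called higher and 1 lower, and the sum was 1350 and 1210 CPM in ctrl and 1360, 1340 and 1380 CPM in cko, with *Map2* the most abundant, and 2 were called lower without ctrl replicate 1 or cko replicate 1. No marker of these 4 lists was at 0 in all libraries, and the part of the cell types in the values of the PRC2 genes was not tested.

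Other cell types were scarce. All 6 microglial markers were below the filter, with *Cx3cr1* and *Tmem119* at 0 counts in every library and a sum of at most 0.897 CPM. The 5 endothelial markers with a row in the table summed to at most 6.76 CPM, with *Cdh5* at 0 and *Kdr* the most abundant. Of 2 tested, 0 were called by edgeR or DESeq2 or had an unadjusted p under 0.05. The 6 markers of pericytes and fibroblasts, led by *Col1a1*, summed to at most 4.43 CPM, and 0 of 2 tested were called by edgeR or DESeq2, with 1 lower at an unadjusted p under 0.05 and 1 called lower by edgeR without ctrl replicate 1 and with no filter. Of 7 dorsal telencephalic markers 5 were tested and 1 was called higher, and the sum was 144 and 129 CPM in ctrl 1 and ctrl 3 and 174, 164 and 177 CPM in cko 1, 2 and 3, with *Lhx2* the most abundant. *Emx1*, the gene that drives the Cre and defines the dorsal region, was near its floor, with 10 and 9 counts in ctrl 1 and ctrl 3 and 1, 4 and 6 counts in cko 1, 2 and 3. Of 8 ventral markers 4 were tested and 0 were called by edgeR or DESeq2, with 0 higher and 1 lower at an unadjusted p under 0.05, while edgeR called 1 higher without ctrl replicate 3 and 1 lower without ctrl replicate 1, with no filter and with all 6 columns. The sum of the ventral markers was 60.7 and 79.3 CPM in ctrl and 75.6, 86.2 and 84.4 CPM in cko.

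Sex-linked transcripts also differed between the groups. *Xist*, which is made from the inactive X chromosome, had 2890 and 2560 CPM in ctrl 1 and ctrl 3 and 787, 849 and 894 CPM in cko 1, 2 and 3 (log2 fold change -1.69, edgeR with Benjamini-Hochberg adjusted p = 3.67e-04). The Y-linked genes were present in every library and higher in cko: *Kdm5d* had 25.1 and 27 CPM in ctrl and 68.9, 69.1 and 67.6 CPM in cko, *Eif2s3y* had a log2 fold change of 1.30 and *Ddx3y* of 0.92. *Uty*, the Y-linked member of the H3K27 demethylase family, had 13.8 and 20.1 CPM in ctrl 1 and ctrl 3 and 42.5, 38.2 and 38.7 CPM in cko 1, 2 and 3, a log2 fold change of 1.24 (SE 0.16, edgeR with Benjamini-Hochberg adjusted p = 0.00431). The call of *Ddx3y* was lost without cko replicate 1 (0.0552) or 3 (0.0708), in a range from 8.24e-13 to 0.0708. Each library thus held both *Xist* and Y-linked RNA. *Rbbp7*, *Kdm6a*, *Bcor* and *Pola1* lie on the X chromosome, and the part of sex in these or the other values was not tested.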

How the data were processed

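RNA-seq counts per gene were taken as the authors deposited them, in 6 columns without normalization. Per the labels the RNA came from a Qiagen kit and SMARTER libraries, and the paper's methods name TRIzol, HISAT2 and mm10, while the submitters' processing notes name GRCm39. The counting tool, annotation and strand setting are not given in the sources used here. Gene names and exon lengths came from GENCODE M21 (GRCm38), which named 31836 of 32493 IDs, and the unnamed IDs held at most 0.299% of the counts of a library.

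Counts of 5 libraries were filtered with filterByExpr and scaled with TMM factors, and the quasi-likelihood test of edgeR 4.0.16 compared the groups (R 4.3.3), with genotype as the only term. Genes were called at a Benjamini-Hochberg adjusted p under 0.05 over all tested genes. DESeq2 1.42.0 was an alternative. Levels are CPM normalized by TMM, while sums over marker lists and values of untested genes use library totals. Errors are SD over libraries, and floors of 3 counts cover counting error only. The fits were checked on simulated counts, but no values of that check are given here.

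All members were described, and from each other list the called genes with the 3 smallest p-values in each direction, with *Cdkn2a*, *Cdkn2b*, *Kdm6a*, *Kdm6b*, *E2f1* and the sex-linked genes whether called or not. The members and lists were chosen with earlier results of these data known. Marker genes and genes in overlaps were named after their values were seen. The alternatives were other scalings, filters, DESeq2, all 6 columns, a replicate block and each library left out. The run with all 6 columns counts the averaged ctrl column as a library and so understates the spread of ctrl. Some items are not reported here.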

Additional observations from a re-analysis of the deposited data

How the results depend on the processing

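Under the alternatives no call reversed among the members and the 28 other named genes that were run under them. *Ezh2* stayed called in 12 of 12, and *Eed*, *Rbbp7*, *Mtf2* and *Aebp2* were called in 0 of 12. The number of members called higher, 4, ran from 1 to 5 when a library was left out, and it was 1 (*Ezh2*) without any of the cko libraries. The number called lower, 0, ran from 0 to 1 when a library was left out, and was 1 with DESeq2, with no filter and with all 6 columns (*Ezh1* each time). Over all genes, the 1314 called higher ran from 317 to 1812 and the 1432 called lower from 416 to 2062 when a library was left out, with the lowest counts without cko replicate 2, so that fewer cko libraries gave fewer calls. All 6 columns gave 2865 higher and 2794 lower, a count raised by the averaged column, and no filter gave 2237 lower. Leaving out a ctrl library leaves 1 ctrl library, whose spread is taken from the cko group.

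The *Ezh2* to *Ezh1* difference ran from 0.95 to 1.31 (log2) and that of *Rbbp7* to *Rbbp4* from -0.19 to -0.02 when a library was left out. Over 28 other named genes, 276 of 334 values kept their side of the threshold, 52 lost a call and 6 gained one. With all 6 columns, 6 PRC1 genes were called higher and 2 lower, 5 CAF-1, HAT1 and NURF partners higher, 1 NuRD gene lower, 2 dorsal markers higher and 2 neuronal markers lower. With no filter, 3 regulators of other lineages and 3 neuronal markers were called lower, DESeq2 called 2 neuronal markers lower, and 1 oligodendrocyte lineage marker was called higher with median-of-ratios size factors or at least 10 counts in every library.

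With the replicate number as a replicate block, 918 genes were called higher and 1065 lower, and 1 member, *Ezh2*, was called higher and 0 lower. The calls of *Jarid2*, *Rbbp4* and *Phf19* were lost with the block, at adjusted p-values of 0.0647, 0.176 and 0.102 (edgeR, Benjamini-Hochberg). The calls of *Epop*, *Kmt2d*, *Kmt2c*, *Nsd2*, *Hdac1*, *Hdac2*, *Smarca5*, *Tbx18* and *E2f5* were not made with the block either, with adjusted p-values (edgeR, Benjamini-Hochberg) from 0.0501 to 0.189. The sources do not say whether the numbers pair the samples. Only replicates 1 and 3 are in both groups, and the correlations of their deviations were 0.226 and 0.0660 over 14347 genes. Ctrl 3 and cko 2, whose numbers differ, gave 0.216. With 2 ctrl libraries the deviations of ctrl 1 and ctrl 3 mirror each other, so these correlations cannot decide whether the samples are paired. Low counts limit *Tbx18*, *Emx1*, the microglial markers and the HOX genes.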
